A study of Homo sapiens with 4 samples.

Results

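The 24 genes described here were close to silent in PBS-treated HaCaT cells and had reads in both M5 libraries. They were chosen by their counts: a sum of 0 or 1 over the 2 PBS libraries and at least 10 in each M5 library. Of the 27356 gene rows, 55 met these limits, and 31 of the 55 were set aside by name (cytokines, chemokines, S100 proteins, serpins, keratins and other large families, antisense transcripts, and 11 rows with no symbol). The difference between M5 and PBS therefore chose the genes, and their values in these groups are given as a description, with no test.

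HaCaT is an immortalised human keratinocyte line. The M5 group (2 libraries) had received 5 cytokines (TNF-α, oncostatin M and the interleukins 1α, 17 and 22), each at 10 μg/L, and the PBS group (2 libraries) phosphate-buffered saline, for 72 h from a plating density of 50%. The treatment tag of the M5 libraries gives a 25 μM dose of DAC instead, against their titles, the protocol and the design text, and the titles were followed. Nothing in the labels says whether the 2 libraries of a group were separate cultures, so p-values measure the spread between libraries, which may be technical. The M5 libraries held 18992988 and 19749612 counts and the PBS libraries 15858644 and 16051974, and 3 counts in 1 library equal between 0.152 and 0.189 CPM (counts scaled to a common library size, here without TMM factors). Summed over 13 keratinocyte markers, the level was 12412 and 11709 CPM in M5 and 10436 and 10470 in PBS, and all 13 had a row.

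The cytokines of M5 act on keratinocytes mainly through NF-kB, MAP kinases and STAT3. Several of the 24 genes are best known from macrophages and other leukocytes, where inflammatory signals switch them on: GBP5 and NLRP3 belong to the inflammasome system, ACOD1 makes itaconate from an intermediate of the citric acid cycle, and CLEC5A and SIGLEC15 are surface receptors of myeloid cells. Others encode ligands (TNFSF14, GPR15LG), an itch receptor (MRGPRX4), a complement protease (C1R), a component of the cornified layer (CRCT1) or long noncoding RNAs beside immune regulators (MIR3142HG, SOCS3-DT).

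The sequences below are those on which the noncoding and promoter results turn. MIR3142HG is the host transcript of 2 microRNAs, and its exons contain the miR-146a hairpin. The mature microRNAs are printed from RefSeq on GRCh38.p14, 5′ to 3′, with the seed (bases 2 to 8) in capitals. They lie on the plus strand at chr5:160485372-160485393, chr5:160485408-160485429 and chr5:160474492-160474513, and no 2 of them share a seed. The libraries measured polyadenylated RNA, so the counts below are of the host transcript and not of these mature microRNAs.
hsa-miR-146a-5p: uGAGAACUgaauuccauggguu
hsa-miR-146a-3p: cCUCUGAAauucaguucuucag
hsa-miR-3142: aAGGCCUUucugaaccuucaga

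RefSeq promoter windows of 300 bases (250 before the start site and 50 after it, GRCh38.p14) were at hand for 16 of the 24 genes (66.7%), so a count of motifs over the genes is void. The following 5 windows were picked, after the search, for a TATA box close before the start site or for 1 match of the NF-kB or STAT type, and other windows also held uncommon motifs. Both strands were searched for TATAAA, the classical NF-kB site of 10 bases (its letters are the capitals in the MIR3142HG window), TTCNNNGAA (the STAT type) and TTNNGNAA (the C/EBP type). Among the 14357 rows of the files with a window, 1067 (7.43%) held TATAAA, 23 (0.16%) the NF-kB site, 964 (6.71%) TTCNNNGAA and 4050 (28.2%) TTNNGNAA. A looser NF-kB type (3 G, any 5 bases, 2 C) was in 70.1% of these rows and is not marked. Not printed are MRGPRX4, with TATAAA, TTCNNNGAA and an ISRE-type match, and SNCAIP, with TATAAA. The SNCAIP match is on the other strand at base 4 after the start site, so it is no TATA box before the start. That RefSeq start lies 79.7 kb downstream of the one in GENCODE 29. Also not printed are TNFSF14, with AP-1 (TGANTCA) and ISRE types, and LINC02889, with the AP-1 type. The AP-1 type was in 5.83% of rows and the ISRE type in 2.88%. The windows of ACOD1 (chr13:76948261-76948560), NLRP3 (chr1:247415923-247416222) and GPR15LG (chr10:84173551-84173850), all on the plus strand, have TATAAA beginning 33, 29 and 30 bases before the start site, in capitals together with every TTNNGNAA match. ACOD1 has another TATAAA, 240 bases before its start.
ACOD1: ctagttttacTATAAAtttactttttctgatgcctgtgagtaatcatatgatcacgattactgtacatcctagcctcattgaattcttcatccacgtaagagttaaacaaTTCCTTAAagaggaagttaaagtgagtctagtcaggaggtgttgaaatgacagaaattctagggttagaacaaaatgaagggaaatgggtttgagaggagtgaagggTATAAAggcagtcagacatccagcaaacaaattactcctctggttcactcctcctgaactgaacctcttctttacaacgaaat
NLRP3: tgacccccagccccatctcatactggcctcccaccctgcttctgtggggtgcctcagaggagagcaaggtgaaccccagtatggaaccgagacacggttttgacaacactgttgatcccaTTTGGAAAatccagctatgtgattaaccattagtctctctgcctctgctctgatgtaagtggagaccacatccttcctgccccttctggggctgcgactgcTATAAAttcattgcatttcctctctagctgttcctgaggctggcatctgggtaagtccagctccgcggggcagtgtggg
GPR15LG: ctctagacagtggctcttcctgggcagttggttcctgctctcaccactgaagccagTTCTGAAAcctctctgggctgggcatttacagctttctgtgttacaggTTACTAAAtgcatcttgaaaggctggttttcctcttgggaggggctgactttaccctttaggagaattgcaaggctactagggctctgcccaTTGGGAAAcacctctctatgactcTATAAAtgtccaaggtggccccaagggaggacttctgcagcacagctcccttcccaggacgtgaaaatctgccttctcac

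The window of MIR3142HG (chr5:160468001-160468300, plus strand) holds the NF-kB site, in capitals, beginning 120 bases before the RefSeq start. That start lies 29.7 kb downstream of the one in GENCODE 29, so the window belongs to an inner start of the transcript as GENCODE draws it. The window of SOCS3-DT (chr17:78360198-78360497, plus strand) holds TTCTAAGAA, in capitals, beginning 30 bases before the start. A match describes the letters only and is neither a binding site nor a cause.
MIR3142HG: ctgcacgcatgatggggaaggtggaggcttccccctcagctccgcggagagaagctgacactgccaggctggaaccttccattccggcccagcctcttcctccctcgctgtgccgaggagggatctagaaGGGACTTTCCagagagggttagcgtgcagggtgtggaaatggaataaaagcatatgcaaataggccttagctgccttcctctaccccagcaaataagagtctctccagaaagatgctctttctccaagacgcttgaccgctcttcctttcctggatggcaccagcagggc
SOCS3-DT: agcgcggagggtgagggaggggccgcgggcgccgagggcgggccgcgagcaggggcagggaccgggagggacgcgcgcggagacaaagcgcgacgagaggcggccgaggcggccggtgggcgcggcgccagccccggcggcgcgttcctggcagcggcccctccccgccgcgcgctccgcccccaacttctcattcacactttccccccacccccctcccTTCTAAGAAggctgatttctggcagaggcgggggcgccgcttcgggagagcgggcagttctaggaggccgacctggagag

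All 24 genes together took 891 and 968 counts in the M5 libraries (0.00469% and 0.0049% of all counts) and 4 and 5 counts in the PBS libraries. In PBS, 15 genes had 0 counts in both libraries and 9 had a single count, 4 of these in replicate 1 and 5 in replicate 2. In M5 they were expressed at a low level: the median of their mean levels was 1.47 CPM (here and below scaled by TMM factors) with a range of 0.66 to 6.80, beside a median of 24.48 CPM over the 13608 rows with at least 10 counts in each M5 library. Per length, the median was 0.486 FPKM, which also scales for gene length, beside 4.295 FPKM over the same 13608 rows, and 4 of the 24 genes had at least 1 FPKM in both M5 libraries. In bulk RNA, a low level in all cells and a higher level in few cells cannot be told apart.

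The M5 libraries were alike for most of these genes. The library with more had a median of 1.25 times the level of the library with less (range 1.02 to 2.10), close to the 1.24 over 3923 other rows in the same range of M5 levels. In 17 of the 24 genes the M5 libraries lay within 1.5 times of each other, and 11 genes were higher in replicate 1 and 13 in replicate 2. SIGLEC15 had the widest gap. By the rule, each M5 library lay above both PBS libraries for every gene, and all 24 were called higher by edgeR's quasi-likelihood test, beside 23.2% of all 16185 tested rows. Nothing is read from that count, since the same counts chose the genes. Of the 5393 rows with 0 or 1 count in PBS, the 55 that met the limits are 1.02%.

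**Figure D1:**
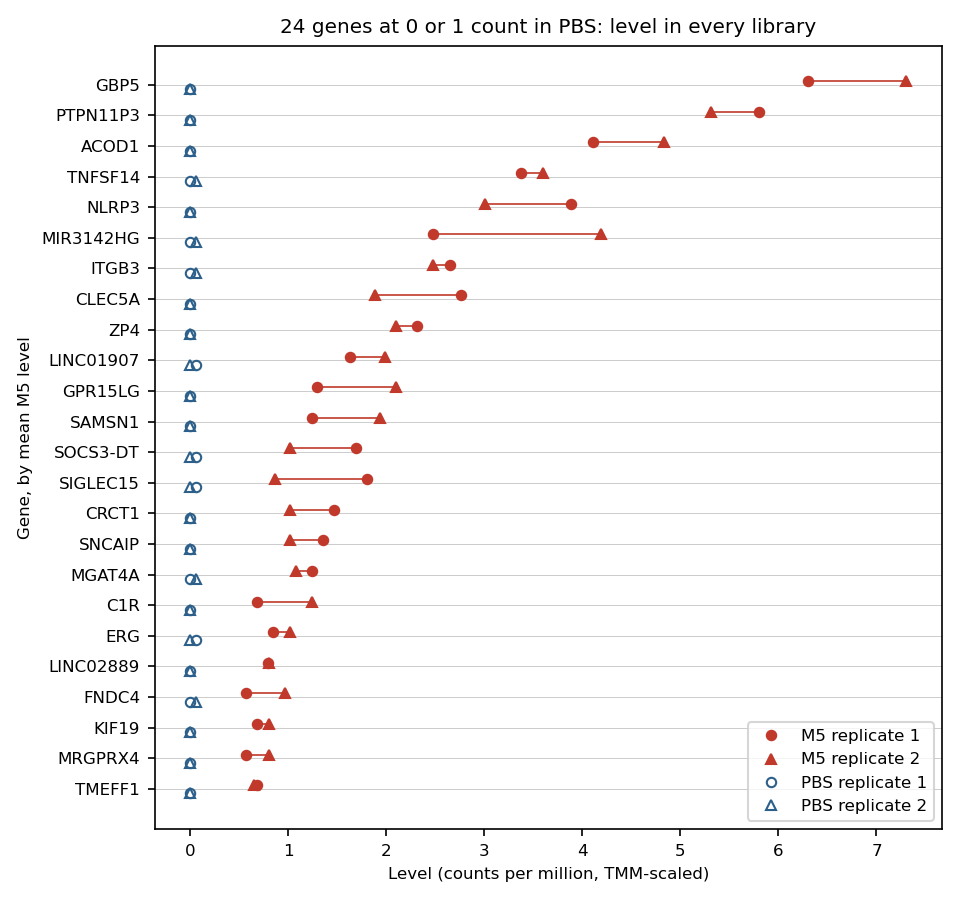
Level of each of the 24 genes (rows, ordered by mean M5 level) in each library on the horizontal axis, in CPM scaled by TMM factors. Filled symbols are the M5 libraries and open symbols the PBS libraries, without error bars since every library is drawn. The M5 symbols lie between 0.56 and 7.30 CPM and the PBS symbols at 0 or at a single count, 0.059 CPM.

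Among the genes of innate sensing, GBP5, an interferon-inducible GTPase that assembles on pathogen membranes and promotes NLRP3 activation, had the most counts (chromosome 1, 89258950 to 89272804, minus strand). GBP5 was at 6.30 and 7.30 CPM in M5 (112 and 136 counts) and had 0 counts in both PBS libraries. Both M5 libraries were high and the pooled level was at least 77.2-fold higher than a floor of 3 counts over the 2 PBS libraries, the bound used throughout. NLRP3, the sensor that builds the inflammasome and activates caspase 1 (chromosome 1, 247416156 to 247449108, plus strand), was at 3.88 and 3.01 CPM in M5 (69 and 56 counts) and had 0 counts in PBS, at least 38.9-fold higher. ACOD1, the itaconate-making decarboxylase (chromosome 13, 76948497 to 76958642, plus strand), was at 4.11 and 4.83 CPM in M5 (73 and 90 counts) and had 0 counts in PBS, at least 50.7-fold higher. For all 3 the M5 libraries lay within 1.5 times of each other. Floors take the M5 counts as exact and allow for counting error on the PBS side only. They cannot be set beside the exact intervals given for other genes, which cover counting error in both groups. Neither covers more than counting error. The same counts chose the genes, so floors and intervals are given as description and may overstate the difference.

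The partners of NLRP3 were expressed in both groups. CASP1, the inflammasome protease, averaged 28.3 ± 0.890 CPM in M5 and 9.54 ± 0.698 CPM in PBS (SD, n = 2 each) (log2 1.57, SE 0.12, edgeR adjusted p = 6.43e-08). PYCARD, the adaptor ASC, averaged 9.95 ± 0.0189 CPM in M5 and 11.5 ± 0.960 CPM in PBS (log2 -0.21, edgeR adjusted p = 0.321), and limma on log2(FPKM + 1) called it lower (adjusted p = 0.0211). NEK7, which binds NLRP3, averaged 83.3 ± 0.425 CPM in M5 and 78.4 ± 1.36 CPM in PBS (log2 0.09, edgeR adjusted p = 0.276). Thus CASP1 was higher in M5 and the other 2 were not called. These partners, and the others named below, were chosen from textbook knowledge after the 24 genes had been seen.

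Around ACOD1, a list of itaconate, tryptophan and arginine enzymes held 5 other tested genes, of which 4 were called higher in M5 and 0 lower, beside 23.2% and 19.6% of all tested rows. KYNU, the kynureninase, had 518 and 569 counts in M5 and 9 and 2 in PBS (log2 6.50, SE 0.27, edgeR adjusted p = 4.35e-11), which was 7.91 without PBS replicate 1 and 5.79 without PBS replicate 2. ASS1, which makes argininosuccinate, was higher by 1.64 (SE 0.06, edgeR adjusted p = 5.01e-12) and ARG2, the mitochondrial arginase, by 2.12 (SE 0.22, edgeR adjusted p = 1.56e-06). IDO1, which starts tryptophan breakdown, lay just outside the limits with 12 and 9 counts in M5 and 0 and 1 in PBS. Its log2 value of 4.00 (edgeR adjusted p = 0.00946) missed the threshold without PBS replicate 1 (3.15, adjusted p = 0.06), was 6.38 without PBS replicate 2, and missed it without M5 replicate 1 (adjusted p = 0.0533) and in DESeq2 (adjusted p = 0.0576).

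The guanylate-binding list (GBP proteins with ubiquitin D, IRGM and apolipoproteins L) held 9 tested genes other than GBP5, of which 7 were called higher and 1 lower, beside 23.2% and 19.6% of all tested rows. Their median log2 fold change was 2.04 beside -0.01. GBP2 had 155 and 199 counts in M5 and 13 and 9 in PBS (log2 3.89, SE 0.28, edgeR adjusted p = 3.03e-08). GBP1 had 272 and 412 counts in M5 and 53 and 31 in PBS (log2 2.92, SE 0.24, edgeR adjusted p = 1.58e-07). APOL1, the trypanosome-killing apolipoprotein, was higher by 3.48 (SE 0.11, edgeR adjusted p = 3.2e-12). GBP6 went the other way, with 228 and 309 counts in M5 and 450 and 490 in PBS (log2 -0.91, SE 0.13, edgeR adjusted p = 4.13e-05). APOL3 was not called, with 49 and 48 counts in M5 and 49 and 48 in PBS. The GBP genes are close paralogs, and how reads with several alignments were counted is not given in the sources used here. IRF1, a transcription factor of interferon signalling, was higher by 0.60 (SE 0.07, edgeR adjusted p = 1.03e-05).

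TNFSF14, the ligand LIGHT of the tumour necrosis factor family (chromosome 19, 6661253 to 6670588, minus strand), was at 3.38 and 3.60 CPM in M5 (60 and 67 counts) and had 0 and 1 counts in PBS. The libraries of M5 nearly coincided, and the ratio was 119 (exact Clopper-Pearson 95% interval 20.9 to 4720, wide because it rests on 1 PBS count). Of the 8 other tested genes in a list of such ligands, 1 was called higher and 1 lower, beside 23.2% and 19.6% of all tested rows. The median log2 fold change of the 8 was -0.21, beside -0.01 over all tested rows. The one called higher was TNFSF10, the death ligand TRAIL, at 88.4 ± 13.0 CPM in M5 and 14.3 ± 0.756 CPM in PBS (SD, n = 2 each) (log2 2.63, SE 0.11, edgeR adjusted p = 4.05e-11). The one called lower was CD70, the ligand of CD27, at 165 and 148 counts in M5 and 271 and 287 in PBS (log2 -0.93, SE 0.15, edgeR adjusted p = 0.000129). Of the receptors for TNFSF14, LTBR averaged 208 ± 2.33 CPM in M5 and 149 ± 1.42 CPM in PBS (log2 0.48, SE 0.05, edgeR adjusted p = 4.45e-06). TNFRSF14 rested on 1 library, with 4 and 33 counts in M5 and 2 and 1 in PBS: its log2 value of 3.41 (edgeR adjusted p = 0.0139) was 1.27 (adjusted p = 0.438) without M5 replicate 2 and 4.22 without M5 replicate 1.

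GPR15LG, a secreted peptide of epithelia that attracts T cells through the receptor GPR15 (chromosome 10, 84173738 to 84185294, plus strand), was at 1.29 and 2.09 CPM in M5 (23 and 39 counts) and had 0 counts in both PBS libraries, at least 19.3-fold higher. Per length it was among the most abundant of the 24, at 1.47 and 2.39 FPKM in M5. MRGPRX4, a receptor of sensory neurons that responds to bile acids and mediates itch (chromosome 11, 18172837 to 18174280, plus strand), was at 0.56 and 0.81 CPM in M5 (10 and 15 counts) and had 0 counts in PBS, at least 7.78-fold higher. M5 replicate 1 of MRGPRX4 stood exactly at the limit of 10 counts. Its paralog MRGPRX3 had 304 and 424 counts in M5 and 9 and 4 in PBS (log2 5.68, SE 0.29, edgeR adjusted p = 6.31e-10, and 6.37 without PBS replicate 1), and how reads that fit both genes were counted is not given.

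CLEC5A, a lectin-type receptor of monocytes and neutrophils (chromosome 7, 141927357 to 141947007, minus strand), was at 2.76 and 1.88 CPM in M5 (49 and 35 counts) and had 0 counts in both PBS libraries, at least 26.1-fold higher. Its exons share 496 of 4129 bp with MGAM on the other strand, and MGAM had 9 and 10 counts in M5 and 4 and 10 in PBS, fewer than CLEC5A in each M5 library. SIGLEC15, a sialic acid receptor of osteoclasts and macrophages (chromosome 18, 45825512 to 45844080, plus strand), was at 1.80 and 0.86 CPM in M5 (32 and 16 counts) and had 1 and 0 counts in PBS, a ratio of 44.8 (exact 95% interval 7.67 to 1807). M5 replicate 1 was 2.10 times replicate 2. SAMSN1, an adaptor that restrains B cell signalling (chromosome 21, 14485228 to 14658821, minus strand), was at 1.24 and 1.93 CPM in M5 (22 and 36 counts) and had 0 counts in PBS, at least 18.1-fold higher. Of the 17 leukocyte markers 7 had a row, among them neither PTPRC (CD45) nor TYROBP, the adaptor of CLEC5A and SIGLEC15. The summed level of the 7 was 29.8 and 32.6 CPM in M5 and 9.20 and 13.0 CPM in PBS. Of the 5 tested, 3 were called higher and 0 lower, beside 23.2% and 19.6% of all tested rows. Those called higher were CD74, the class II invariant chain (log2 2.66, SE 0.26), LCP1, an actin-bundling protein (1.66, SE 0.24), and CD14, the lipopolysaccharide co-receptor (1.52, SE 0.23, edgeR adjusted p = 6.91e-05). CORO1A (log2 0.52, edgeR adjusted p = 0.274) and ITGB2 (log2 -0.95, edgeR adjusted p = 0.294) were not called. FCER1G and CD3E were too low to test. What part, if any, leukocyte RNA had in these values was not tested.

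ITGB3, the integrin β3 chain that pairs with αV or αIIb (chromosome 17, 47253846 to 47311816, plus strand), was at 2.65 and 2.47 CPM in M5 (47 and 46 counts) and had 0 and 1 counts in PBS, a ratio of 86.8 (exact 95% interval 15.2 to 3466). Both M5 libraries were alike. A second annotated gene on the same strand, AC068234.1, covers 2266 of the 4394 exonic bp, so the row may hold reads of either. ITGAV, which encodes αV, averaged 280 ± 8.28 CPM in M5 and 163 ± 1.12 CPM in PBS (SD, n = 2 each) (log2 0.79, SE 0.05, edgeR adjusted p = 2.06e-08). ITGA2B, which encodes αIIb, was too low to test, with 1 and 0 counts in M5 and 4 and 8 in PBS. Of the 13 tested rows whose symbols begin with ITGB, 5 were called higher and 4 lower (23.2% and 19.6% of all tested rows). Not all of these rows are β chains: ITGB1BP1, ITGB1BP2, ITGB3BP, ITGB1-DT, ITGB1P1 and ITGB8-AS1 are not. Of the β chains tested, ITGB1, ITGB4 and ITGB6 were called higher, ITGB5, ITGB7 and ITGB8 lower, and ITGB2 was not called. ITGB6, the β6 chain of injured epithelium, was higher by 2.22 (SE 0.07, edgeR adjusted p = 9.89e-13) and ITGB8 lower at -0.82 (SE 0.07, edgeR adjusted p = 2.73e-07).

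C1R, the protease that starts the classical complement pathway (chromosome 12, 7080199 to 7092607, minus strand), was at 0.68 and 1.24 CPM in M5 (12 and 23 counts) and had 0 counts in both PBS libraries, at least 10.9-fold higher. M5 replicate 2 was 1.83 times replicate 1, and 672 of its 5885 exonic bp are shared with C1RL. C1S, the protease that C1R cleaves, starts 104 kb away and was far more abundant, with 1371 and 1528 counts in M5 and 21 and 21 in PBS (log2 6.00, SE 0.13, edgeR adjusted p = 3.06e-14). C1RL itself had 22 and 18 counts in M5 and 9 and 7 in PBS (log2 1.21, edgeR adjusted p = 0.077). SERPING1, the inhibitor of both proteases, had 13 and 7 counts in M5 and 0 in PBS (edgeR adjusted p = 0.00508), a call that limma on log2(FPKM + 1) did not make (adjusted p = 0.176).

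CRCT1, a small cysteine-rich protein encoded in the epidermal differentiation complex (chromosome 1, 152514502 to 152516010, plus strand), was at 1.46 and 1.02 CPM in M5 (26 and 19 counts) and had 0 counts in both PBS libraries, at least 14.01-fold higher. Per length it was at 1.91 and 1.34 FPKM in M5. Its tested neighbours within 100 kb were both late cornified envelope genes of the group known from repair of the skin barrier. LCE3D had 145 and 161 counts in M5 and 3 and 0 in PBS (log2 6.46, SE 0.46, edgeR adjusted p = 2.73e-08), with 10.23 without PBS replicate 1, where the other PBS library is at 0, and 5.51 without PBS replicate 2. LCE3E had 93 and 84 counts in M5 and 4 and 2 in PBS (log2 4.73, SE 0.41, edgeR adjusted p = 2.66e-07). Farther out, within 250 kb, tested genes moved in both directions. FLG, which encodes filaggrin, was lower, with 373 and 267 counts in M5 and 3051 and 3413 in PBS (log2 -3.43, SE 0.11, edgeR adjusted p = 3.72e-12). FLG2 was also lower (log2 -2.48, edgeR adjusted p = 0.028). KPLCE was higher (log2 8.40, edgeR adjusted p = 5.98e-11), and CRNN was not called (edgeR adjusted p = 0.26).

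The most abundant of the 24 per length was a pseudogene, PTPN11P3 (chromosome 6, 137705423 to 137707201, minus strand), a processed copy of the phosphatase gene PTPN11. It was at 3.05 and 2.82 FPKM in M5 (103 and 99 counts, 5.80 and 5.32 CPM) and had 0 counts in both PBS libraries, at least 62.9-fold higher. PTPN11, the parent, had 6728 and 6639 counts in M5 and 4867 and 5100 in PBS (log2 0.33, SE 0.06, edgeR adjusted p = 0.000234, with an adjusted p = 0.07 in limma on log2(FPKM + 1)). By the rule the copy had a sum of 0 or 1 in PBS, and whether reads of the parent entered its row was not tested. PTPN11P3 lies in an intron of LINC03004 on the other strand and shares no exonic base with it. The kit does not mark strand, so unspliced RNA of LINC03004 and RNA of PTPN11P3 cannot be told apart in this row.

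The tested genes within 250 kb of PTPN11P3, 5 in all, were each called higher in M5. The nearest start, 14.1 kb downstream, belongs to ENSG00000283265, a row without a symbol, with 215 and 231 counts in M5 and 1 and 3 in PBS (log2 6.62, SE 0.35, edgeR adjusted p = 7.81e-10, and 7.54 without PBS replicate 2). LINC03004 starts 49.2 kb downstream and had 122 and 120 counts in M5 and 1 and 2 in PBS (log2 6.13, SE 0.41, edgeR adjusted p = 1.36e-08). LINC02539 starts 85.6 kb upstream and had 33 and 36 counts in M5 and 2 and 0 in PBS (log2 4.85, SE 0.73, edgeR adjusted p = 6.85e-05), with 8.08 without PBS replicate 1 and 3.93 without PBS replicate 2. The protein-coding gene among the 5 is TNFAIP3, which encodes A20, the ubiquitin-editing inhibitor of NF-kB. TNFAIP3 starts 160 kb upstream and had 12779 and 13955 counts in M5 and 861 and 886 in PBS (log2 3.84, SE 0.06, edgeR adjusted p = 9.91e-16). WAKMAR2, the noncoding RNA that starts beside TNFAIP3, had 312 and 307 counts in M5 and 39 and 26 in PBS (log2 3.15, SE 0.21, edgeR adjusted p = 1.18e-08).

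**Figure D2:**
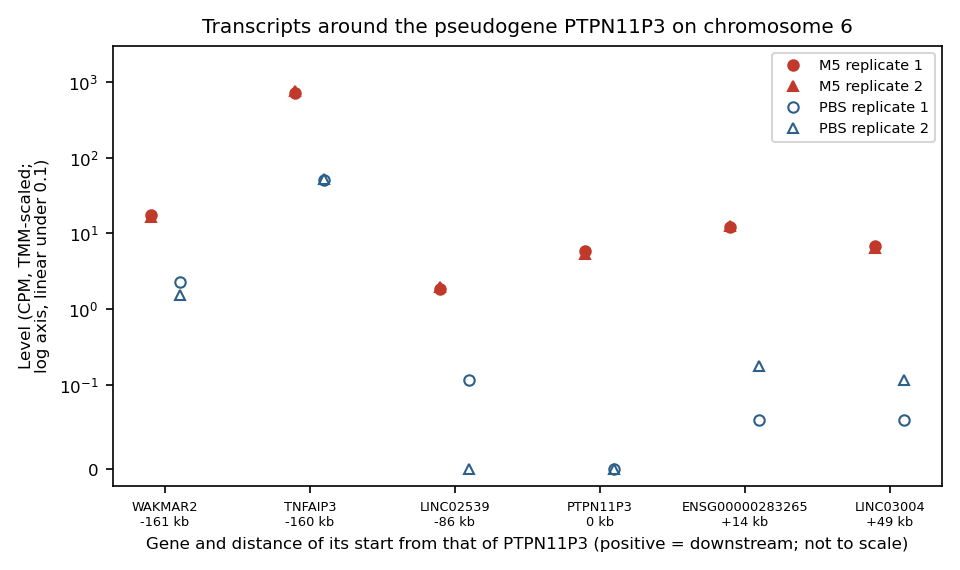
Level in CPM (log axis, linear under 0.1) of PTPN11P3 and the 5 tested genes with a start within 250 kb of its own, in order along the strand of PTPN11P3 with their distances, which are not drawn to scale. Filled symbols are the M5 libraries and open symbols the PBS libraries. In all 6 genes both M5 libraries lie above both PBS libraries, from 1.86 CPM for LINC02539 to 749 CPM for TNFAIP3 in M5.

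MIR3142HG, the host of miR-146a shown above (chromosome 5, 160438594 to 160487426, plus strand), was at 2.48 and 4.19 CPM in M5 (44 and 78 counts) and had 0 and 1 counts in PBS, a ratio of 114 (exact 95% interval 20.1 to 4536). M5 replicate 2 was 1.69 times replicate 1, and the 99 bp of the miR-146a hairpin gene lie within its 2377 exonic bp. Mature miR-146a is known to act on the NF-kB adaptors TRAF6 and IRAK1. TRAF6 had 677 and 809 counts in M5 and 499 and 532 in PBS (log2 0.43, SE 0.09, edgeR adjusted p = 0.00189, with an adjusted p = 0.144 in limma on log2(FPKM + 1)). IRAK1 had 9485 and 8161 counts in M5 and 7661 and 7987 in PBS (log2 0.08, edgeR adjusted p = 0.441). Leaving out M5 replicate 2 gave IRAK1 a log2 fold change of 0.20 (adjusted p = 0.00878), and leaving out M5 replicate 1 one of -0.07 (adjusted p = 0.226).

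SOCS3-DT, transcribed away from SOCS3 on the other strand (chromosome 17, 78360453 to 78373911), was at 1.69 and 1.02 CPM in M5 (30 and 19 counts) and had 1 and 0 counts in PBS, a ratio of 45.8 (exact 95% interval 7.84 to 1844). SOCS3, the feedback inhibitor of STAT3 signalling, starts 376 bp away and had 1988 and 2047 counts in M5 and 95 and 65 in PBS (log2 4.56, SE 0.11, edgeR adjusted p = 1.66e-13). Both RNAs were thus higher in each M5 library than in either PBS library, SOCS3 at a level far above SOCS3-DT. Of the 8 tested rows named SOCS, 4 were called higher and 2 lower (23.2% and 19.6% of all tested rows). SOCS1, which restrains JAK kinases, had 227 and 263 counts in M5 and 16 and 16 in PBS (log2 3.83, SE 0.23, edgeR adjusted p = 3.36e-09).

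The remaining noncoding RNAs have no established role that could be given here. LINC01907 (chromosome 2, 230690921 to 230700529, minus strand) had 29 and 37 counts in M5 (1.63 and 1.99 CPM) and 1 and 0 in PBS, a ratio of 61.6 (exact 95% interval 10.7 to 2471). CAB39, a partner of the kinase LKB1, starts 12.3 kb from LINC01907 on the other strand and averaged 475 ± 8.56 CPM in M5 and 170 ± 0.715 CPM in PBS (SD, n = 2 each) (log2 1.48, SE 0.05, edgeR adjusted p = 1.14e-11). LINC02889 (chromosome 7, 17405479 to 17558909, minus strand) had 14 and 15 counts in M5 (0.79 and 0.81 CPM) and 0 in PBS, at least 9.03-fold higher. Of 524 other tested rows with names of this noncoding kind, 52 were called higher and 91 lower, beside 23.2% and 19.6% of all tested rows. Both shares were below those of all rows, the share called higher by more. Their median log2 fold change was -0.34 beside -0.01 over all tested rows.

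The other genes encode proteins of varied function. ZP4, a glycoprotein of the egg coat (chromosome 1, 237877864 to 237890922, minus strand), was at 2.31 and 2.09 CPM in M5 (41 and 39 counts) and had 0 counts in both PBS libraries, at least 24.9-fold higher. Its M5 libraries were alike, and 84 of its 2474 exonic bp lie opposite an antisense gene that had 4 and 4 counts in M5 and 0 in PBS. SNCAIP, which encodes synphilin-1 (chromosome 5, 122311354 to 122464219, plus strand), had 24 and 19 counts in M5 (1.35 and 1.02 CPM) and 0 in PBS, at least 13.4-fold higher. Both M5 libraries were alike. Its exons lie opposite 272 and 194 bp of 2 antisense genes, of 7325 exonic bp.

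MGAT4A, which adds a branch to N-glycans (chromosome 2, 98619106 to 98731126, minus strand), had 22 and 20 counts in M5 (1.24 and 1.07 CPM) and 0 and 1 in PBS, a ratio of 39.2 (exact 95% interval 6.66 to 1585). Per length MGAT4A was the lowest of the 24, at 0.113 FPKM on average in M5. MGAT1, which opens the same branching pathway, had 4799 and 4811 counts in M5 and 2634 and 2566 in PBS (log2 0.79, SE 0.06, edgeR adjusted p = 2.41e-08). ERG, an ETS transcription factor of endothelium (chromosome 21, 38380027 to 38661780, minus strand), had 15 and 19 counts in M5 (0.84 and 1.02 CPM) and 1 and 0 in PBS, a ratio of 31.7 (exact 95% interval 5.33 to 1290). Summed over the 5 endothelial markers with a row, the level was 2.98 and 4.14 CPM in M5 and 2.12 and 2.06 CPM in PBS. The markers moved in both directions. CDH5 was higher, with 48 and 74 counts in M5 and 15 and 20 in PBS (log2 1.69, edgeR adjusted p = 0.000966). VWF was lower, with 3 and 0 counts in M5 and 19 and 11 in PBS (log2 -3.31, edgeR adjusted p = 0.00881). The other 3 had at most 3 counts in every library. The part of endothelial cells in the level of ERG was not tested.

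FNDC4, a secreted fibronectin type III protein (chromosome 2, 27491883 to 27495245, minus strand), had 10 and 18 counts in M5 (0.56 and 0.97 CPM) and 0 and 1 in PBS, a ratio of 26.1 (exact 95% interval 4.32 to 1069). KIF19, a kinesin that in mice limits the length of cilia (chromosome 17, 74326210 to 74355820, plus strand), had 12 and 15 counts in M5 (0.68 and 0.81 CPM) and 0 in PBS, at least 8.40-fold higher. These stood just inside the limits, with C1R, MRGPRX4 and TMEFF1. TMEFF1, a membrane protein with follistatin and EGF-like modules (chromosome 9, 100473113 to 100577636, plus strand), had 12 and 12 counts in M5 (0.68 and 0.64 CPM) and 0 in PBS, at least 7.47-fold higher. A readthrough gene that joins it to MSANTD3 covers 1983 of its 2611 exonic bp, and MSANTD3 itself had 1615 and 1721 counts in M5 and 777 and 887 in PBS (log2 0.90, SE 0.07, edgeR adjusted p = 9.19e-08). The row of TMEFF1 may therefore include such readthrough.

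Just outside the limits stood 8 rows with 8 or 9 counts in the lower M5 library and 13 with a PBS sum of 2. The 8 include MEFV, which encodes the inflammasome sensor pyrin, with 14 and 9 counts in M5 and 0 in PBS. The 13 include ACKR2, the chemokine-scavenging receptor, with 67 and 51 counts in M5 and 0 and 2 in PBS, and KPLCE, a gene of the epidermal differentiation complex, with 405 and 407 counts in M5 and 2 and 0 in PBS. KPLCE thus had more M5 counts than any of the 24 and was kept out by 1 further PBS count. These names were chosen after their values were seen. In the other direction, 15 rows had 0 or 1 count over both M5 libraries and at least 10 in each PBS library, and 10 remained once the same names were set aside.

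The neighbours of the 24 genes were not used to choose them and could be tested, except that SAA4 met the same count limits. Of the 75 other rows that start within 100 kb of one of the 24, 51 were tested. Of these, 27 (52.9%) were called higher in M5 and 8 (15.7%) lower, beside 23.2% and 19.6% of all 16185 tested rows (edgeR, adjusted p under 0.05). In either direction 35 (68.6%) were called, beside 42.8%. Without SAA4, 26 were higher, 8 lower and 34 called in all. Their median log2 fold change was 0.38 beside -0.01. With library totals in place of TMM factors 72.4% of the called neighbours were higher, against 77.1% with TMM, while among all called rows the share was 33.1% against 54.3%. The 51 lie around 15 of the 24 genes, and 13 of these 15 had at least 1 neighbour called higher. Neighbours of 1 gene share a locus and are not independent.

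**Figure D3:**
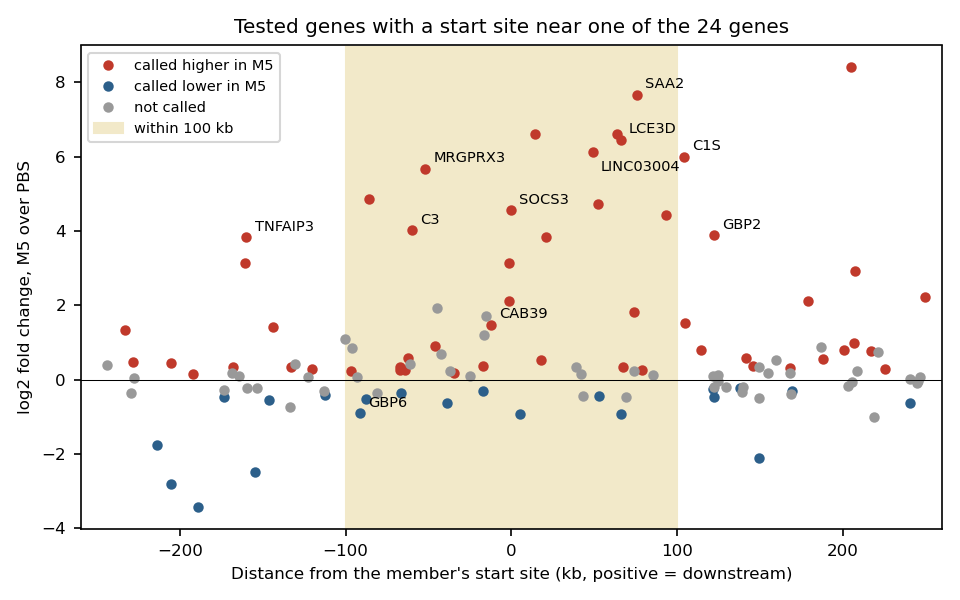
Log2 fold change of M5 over PBS (vertical axis) of tested genes against the distance of their start from that of the nearby gene among the 24 (horizontal axis, kb, positive downstream, to scale). Each point is 1 gene, coloured by its call, and the shaded band marks 100 kb on either side. Within the band 27 points are called higher and 8 lower, and SAA2 is the highest of them at 7.67.

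The 10 called neighbours with the largest absolute change were all higher. They included SAA2, SAA4, SAA1 and MRGPRX3 beside MRGPRX4, LCE3D and LCE3E beside CRCT1, SOCS3 beside SOCS3-DT, and ENSG00000283265, LINC03004 and LINC02539 beside PTPN11P3. Of the serum amyloid genes, SAA1 and SAA2 encode acute-phase apolipoproteins. SAA2 had 547 and 599 counts in M5 and 1 and 4 in PBS (log2 7.67, SE 0.26, edgeR adjusted p = 5.87e-12), with 7.02 without PBS replicate 1 and 8.90 without PBS replicate 2. SAA1 had 504 and 739 counts in M5 and 14 and 39 in PBS (log2 4.44, SE 0.27, edgeR adjusted p = 3.37e-09, and 5.35 without PBS replicate 2). SAA4 had 15 and 10 counts in M5 and 0 in PBS. It met the count limits of the 24 and was set aside by its name. SAA1 and SAA2 are near-identical copies, so the split of reads between them is uncertain. SAAL1, which starts on the other side of MRGPRX4, was lower, with 664 and 680 counts in M5 and 773 and 840 in PBS (log2 -0.36, SE 0.08, edgeR adjusted p = 0.00235).

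Beside TNFSF14, the complement component C3 starts 59.97 kb upstream and had 12574 and 12970 counts in M5 and 728 and 748 in PBS (log2 4.01, SE 0.06, edgeR adjusted p = 6.08e-16), while CD70 on the other side was lower, as given above. Beside FNDC4, IFT172, a protein of ciliary transport, was lower, with 265 and 296 counts in M5 and 517 and 479 in PBS (log2 -0.93, SE 0.11, edgeR adjusted p = 6.43e-06). Beside GBP5, GBP4 was higher by 1.81 (SE 0.20, edgeR adjusted p = 3.69e-06) and GBP6 lower. Thus loci of the 24 held genes moving in both directions. Around CLEC5A and C1R no gene that starts within 100 kb was called. C1S, called higher as given above, starts 104 kb from C1R and so fell just outside that distance.

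Relatives by symbol (rows that share the letters before the first digit) numbered 204, of which 128 were tested. Of these, 52 (40.6%) were called higher in M5 and 25 (19.5%) lower, beside 23.2% and 19.6% of all tested rows, with a median log2 fold change of 0.15 beside -0.01. The share called lower was thus that of all rows. Some relatives are also neighbours counted above, so the sets overlap. Among them are MRGPRX3, SOCS3, GBP4 and GPR108, called higher, and GBP6, called lower. Under library totals the called relatives were 54.8% higher, against 67.5% with TMM, and their median was -0.04, while all called rows were 33.1% higher and the median of all rows was -0.19. Without the rows named GPR, whose receptors are no relatives of the ligand GPR15LG, 39 were called higher and 23 lower. The families differed in their counts: the GBP rows had 4 called higher and 1 lower of 5 tested, the NLRP rows 2 higher of 3, the PTPN rows 8 higher and 2 lower of 15, and the KIF rows 8 higher and 13 lower of 33.

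**Figure D4:**
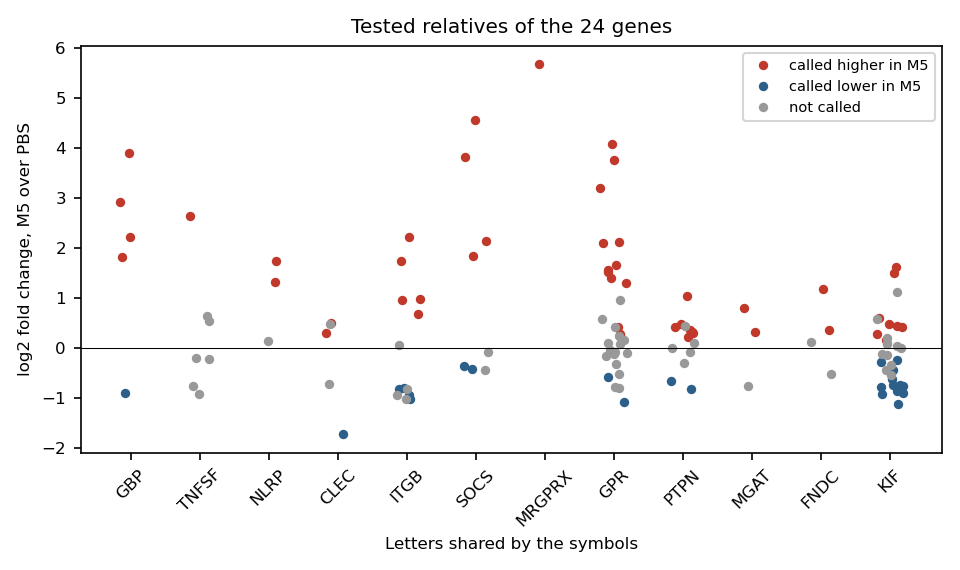
Log2 fold change of M5 over PBS (vertical axis) of the 128 tested relatives, by the letters their symbols share (horizontal axis). Each point is 1 gene, coloured by its call, with sideways scatter only for legibility. MRGPRX3 is the highest point at 5.68, and the KIF column holds 13 of the 25 points called lower.

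Among the relatives, NLRP1, the inflammasome sensor most abundant in keratinocytes, had 806 and 828 counts in M5 and 235 and 221 in PBS, a call of higher with an edgeR adjusted p = 2.01e-09. NLRP3P1, a pseudogene of NLRP3, had 72 and 62 counts in M5 and 21 and 29 in PBS (edgeR adjusted p = 0.00248), so unlike NLRP3 it was detected in PBS. Of the receptors named GPR, GPR143, GPR141 and GPR85 had the largest called changes. GPR141 had 402 and 498 counts in M5 and 26 and 36 in PBS (log2 3.75, SE 0.19, edgeR adjusted p = 5.08e-10). GPR143, the melanosome receptor, had 34 and 61 counts in M5 and 3 and 2 in PBS (log2 4.08, SE 0.55, edgeR adjusted p = 2.36e-05). GPR85 had 26 and 15 counts in M5 and 1 and 3 in PBS (log2 3.19, SE 0.75, edgeR adjusted p = 0.00294), a value of 4.11 without PBS replicate 2, and limma on log2(FPKM + 1) did not call it (adjusted p = 0.078). None of the 5 SIGLEC rows was high enough to test, so SIGLEC15 had no tested relative.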

How the data were processed

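Per the labels' protocols, polyadenylated RNA of 4 HaCaT libraries (2 M5, 2 PBS) was sequenced with a kit that does not mark strand. Of tools and builds, HISAT2, HTSeq 0.13.5 and GRCh38 are listed, with no role, per the submitters' processing notes. The annotation release and the handling of multiply aligned reads were not found in these sources. Per the file headers, the authors deposited a read count and an FPKM value for each of 27356 genes. The count divided by the deposited FPKM gave whole gene lengths to within 3.06e-08 bp. Of the rows, 6616 carried an Ensembl name only.

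Counts were tested with edgeR 4.0.16 (R 4.3.3; TMM, quasi-likelihood, two-sided) on 16185 rows with a count sum of at least 20 over the 4 libraries, the least that the 24 genes can have. Benjamini-Hochberg adjustment ran over all 16185, and rows under 0.05 are called. CPM are scaled by TMM factors. DESeq2 1.42.0, limma 3.58.1 on log2(FPKM + 1) and log2(FPKM + 0.1), other scalings and filters, a replicate block and each library left out were alternatives, and the edgeR step was tested on simulated data.

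Positions come from GENCODE 29 on GRCh38, which holds 25496 rows (93.2%) and all 24 genes, and sequences from RefSeq on GRCh38.p14. The 24 genes, the gene lists and the markers were chosen with earlier results of these data known. Named in full were all 24 genes and, of neighbours and of relatives, the 10 called with the largest absolute change; other genes were named after their values were seen. The planned count of promoter motifs over the genes was dropped because 16 of 24 had a promoter. The result of 1 further gene is not reported here.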

Additional observations from a re-analysis of the deposited data

How the results depend on the processing

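The number of genes depends on the limits: 15 with a PBS sum of 0, 50 with at most 3, 13 with at least 20 counts in each M5 library and 57 with at least 5. Their median M5 level was 1.38 CPM with library totals, 0.486 as FPKM, and 1.55 to 1.56 CPM without M5 replicate 2 or 1. Of neighbours, 14 were called within 50 kb (11 higher, 3 lower) and 74 within 250 kb (53 higher, 21 lower); DESeq2 called 5 lower, and leaving out a library 4 (without M5 replicate 1) to 7. Limma on log2(FPKM + 1) called 34 relatives higher. Over all rows it called 2215 higher, or 2249 on log2(FPKM + 0.1), and library totals called 5193 lower, with the median log2 fold change moved to -0.19. Over 66 other genes named or examined, 757 of 780 alternatives kept direction and call, 13 ended a call, 3 made one, and 7 reversed a value that was not called. NEK7 was at -0.0928, -0.0869 and -0.0922 with library totals and with limma at pseudocounts of 1 and 0.1, and IRAK1 at -0.104, -0.109 and -0.110, and between -0.0740 and 0.2048 with M5 replicates 1 and 2 left out in turn. The cause was not tested. The replicate numbers did not pair the libraries (r = -0.01 between same-numbered deviations over 16185 genes, which are not independent); with the replicate block 3924 rows were called higher and 3355 lower, 28 and 8 neighbours, and 53 and 25 relatives. The promoter alternative with the last 100 bases before the start site was not reported, since its set was void. Counts of 10 to 30 in M5 and 0 or 1 in PBS limit the precision of the ratios.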

Other observations

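Among gene lists that hold none of the 24 genes, all 5 tested antimicrobial genes were called higher in M5, and of 7 tested CEACAM and mucin genes 5 were called higher and 0 lower, beside 23.2% and 19.6% of all tested rows. CEACAM1, an adhesion molecule of epithelia, had 217 and 277 counts in M5 and 51 and 50 in PBS (log2 2.19, SE 0.19, edgeR adjusted p = 3.1e-07). MUC1, a transmembrane mucin, averaged 37.8 ± 5.20 CPM in M5 and 7.65 ± 0.609 CPM in PBS (SD, n = 2 each) (log2 2.31, SE 0.13, edgeR adjusted p = 2.06e-09). Of 13 tested chemoattractant and metabolite receptors 4 were higher and 2 lower, of 8 adhesion and costimulation genes 4 were higher and 2 lower, and of 68 ion channel genes 15 were higher and 11 lower. Both tested vanin and chitinase-like genes were higher.

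Of 30 germline genes listed, 4 had a row and 1 was tested, so the egg-coat gene ZP4 had almost no tested company of that kind. The 1 tested, DDX43, was called higher close to the threshold, with 43 and 48 counts in M5 and 15 and 29 in PBS (log2 0.95, SE 0.36, edgeR adjusted p = 0.048). Among keratinocyte markers, 9 of 13 were called higher and 3 lower, beside 23.2% and 19.6% of all tested rows. The 3 called lower were KRT5 (log2 -0.93), KRT10 (log2 -0.42) and KRT1, with 0 counts in both M5 libraries and 44 and 76 in PBS. Fibroblast markers summed to 6.42 and 4.19 CPM in M5 and 4.37 and 4.87 CPM in PBS, melanocyte markers to 10.5 and 8.97 CPM in M5 and 14.8 and 15.3 CPM in PBS, and neuron markers to 12.8 and 15.6 CPM in M5 and 6.43 and 5.58 CPM in PBS. The neuron sums differed through TUBB3, a tubulin, at 9.57 and 12.9 CPM in M5 and 2.77 and 1.94 CPM in PBS, while SYP, a synaptic vesicle protein, was not called (log2 -0.42, edgeR adjusted p = 0.221) and SNAP25 and RBFOX3 had at most 4 counts in a library. No hepatocyte marker had a row.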
